A study of Rattus norvegicus with 6 samples.

Results

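Collagen genes were followed in Rat-1, a cultured line of rat fibroblasts, plated at 25000 cells in each well and collected after 4 h on extracellular matrix. The matrix had been remodelled by MMP13 (2 libraries), had been remodelled by MMP1 (2 libraries) or was left native (2 libraries). MMP13 and MMP1 are secreted collagenases, and what all 6 libraries share is the cell line, the time and the 3' end RNA sequencing. A list of 10 genes was looked up by symbol: Col1a1, Col1a2, Col3a1, Col5a1, Col5a2, Col4a1, Col4a2, Col6a1, Col6a2 and Col12a1. Of these, 7 were found among the 17143 genes of the table, while Col4a2, Col6a1 and Col12a1 had no row there and are not analysed here. All 7 passed the filter on low values. Each pair is described as duplicates, and nothing in the labels tells whether the pair came from separate cultures. The p-values therefore set a difference between groups only against the spread within pairs, and that spread may be technical. For limma this spread came from genes of like level, as given below.

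Collagens are secreted proteins whose chains wind around each other into helices. Fibrillar collagens of types I, III and V assemble into the fibres that give connective tissue its tensile strength, and fibroblasts are their main source. Type IV collagen forms the sheet-like network of basement membranes, and type VI forms beaded filaments near the cell surface. MMP1 and MMP13 cut the helix of fibrillar collagens. The comparison asks whether fibroblasts that land on a matrix already degraded by a collagenase express their own collagen genes at another level than fibroblasts on intact matrix. The transcripts described here come from the seeded cells, as far as the labels say, and the collagen protein of the matrix was not measured.

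None of the 7 collagen genes passed the test in any comparison. Type I collagen transcripts were abundant on each matrix, and the Col1a1 level stood at 2239 ± 53.3 units on MMP13-remodelled, 2072 ± 168 on MMP1-remodelled and 1972 ± 202 on native matrix (SD, n = 2 each). A unit is 1 read divided by the authors' size factor for its library. The largest log2 folds belonged to the low genes: Col3a1 had a log2 fold of 1.25 between MMP13- and MMP1-remodelled matrix, on 4 to 28 reads per library. By the gene's own spread, the interval of the Col1a1 fold against native was 0.892 to 1.45 for MMP13 and 0.824 to 1.34 for MMP1. For Col1a2 it was 0.755 to 1.30 and 0.785 to 1.35 in the same order. The spread within pairs may be technical, so these intervals do not bound a difference between separate cultures.

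**Figure D1:**
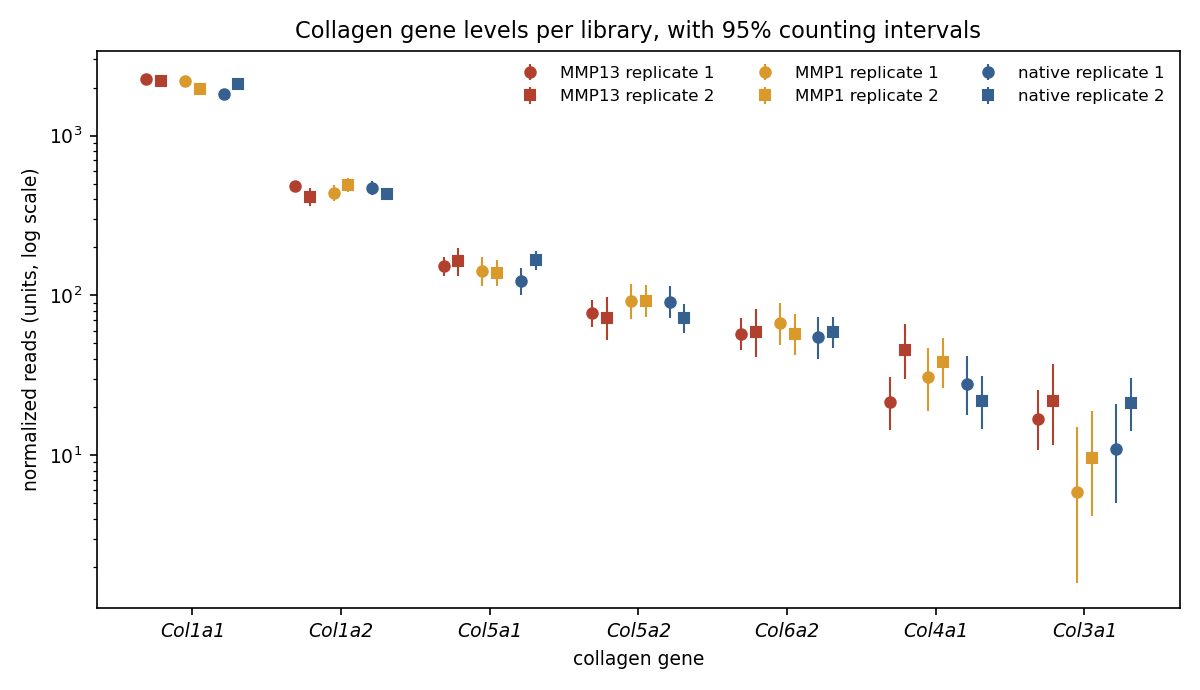
Levels of the 7 collagen genes in each library (normalized reads, log axis). Each point is 1 library, circles are replicate 1 and squares replicate 2, colours give the matrix, and bars are exact 95% Poisson intervals for counting error only. Col1a1 lies between 1829 and 2277 units in all 6 libraries, and the intervals widen toward Col3a1, which lies between 5.84 and 21.8 units.

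The libraries held 161817 to 362122 recovered reads, and a single read stood for 0.735 to 1.68 units. Fibroblast markers fixed as a list (Vim, Fn1, Lgals1, S100a4, Thy1, Pdgfra, Pdgfrb and Fap) took 1.75% to 1.98% of reads, and all 8 had reads in at least 1 library. The tenocyte list, of which 5 of 6 genes had a row, took 0.0117% to 0.0270%. The leukocyte, endothelial, epithelial, erythroid, skeletal muscle, adipocyte and cartilage lists took at most 0.0196% each in any library, and the smooth muscle and pericyte list 0.120% to 0.156%. Tie1, Epcam, Alas2 and Lep were at 0 reads in every library.

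The 7 genes together took 1.16% and 1.10% of reads on MMP13-remodelled matrix, 1.10% and 1.03% on MMP1-remodelled matrix, and 0.977% and 1.10% on native matrix. The groups overlap, with means of 1.13% ± 0.0440, 1.07% ± 0.0528 and 1.04% ± 0.0871 (SD, n = 2 each) on MMP13-remodelled, MMP1-remodelled and native matrix. The ribosomal RNA precursor entry Rn45s took 0.692% and 0.968% of reads on MMP13-remodelled and 0.661% and 0.936% on MMP1-remodelled matrix, against 0.347% and 0.293% on native matrix. Leaving the ribosomal RNA entries out of the totals gave means of 1.14%, 1.08% and 1.04% in the same order. With those totals the lower MMP13 library (1.107%) lay just above the higher native one (1.104%), while the MMP1 libraries still overlapped the native ones. Type I collagen, that is Col1a1 plus Col1a2, made up between 87.9% and 89.5% of the reads of the 7 genes in every library. In bulk RNA such as this, fewer cells making a transcript and less of it per cell cannot be told apart.

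Because these libraries read the 3' end of a transcript, levels were compared between genes without dividing by length, and how well each gene's end was captured is not known. By mean level over the 6 libraries the order was Col1a1 (2094 units), Col1a2 (456), Col5a1 (147), Col5a2 (82.8), Col6a2 (59.1), Col4a1 (30.9) and Col3a1 (14.4). Neighbours in this order did not overlap in range across libraries, except Col4a1 (21.3 to 45.3 units) and Col3a1 (5.84 to 21.8 units). Within each library Col4a1 was the higher of these, but by as little as 29 reads against 28 in native replicate 2. Col1a1 ranked 3rd or 4th of all genes in every library, and Col3a1 ranked between 2424th and 5715th.

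Col1a1 encodes the chain that type I collagen holds in excess. It had 2277 and 2201 units on MMP13-remodelled matrix, 2191 and 1953 units on MMP1-remodelled matrix, and 1829 and 2114 units on native matrix. Both MMP13 libraries lay above both native libraries, whereas the MMP1 libraries spanned the higher native one. The log2 fold was 0.19 for MMP13 against native (SE 0.082, limma adjusted p = 0.489) and 0.07 for MMP1 against native (SE 0.082, limma adjusted p = 0.857). The 95% interval of the fold ran from 1.02 to 1.27 for MMP13 and from 0.941 to 1.18 for MMP1. These errors come from limma's trend, that is from genes of like level, because the fit gave no weight to a gene's own libraries. The residual SD of Col1a1 itself (0.111 on the log2 scale) was above the trend's 0.0821, and with its own spread on 3 degrees of freedom the intervals were 0.892 to 1.45 for MMP13 and 0.824 to 1.34 for MMP1. For MMP13 against native the unadjusted p was 0.0229 by the trend and 0.190 by the gene's own spread.

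Col1a2 encodes the other chain of type I collagen. It had 482 and 415 units on MMP13-remodelled matrix, 440 and 492 units on MMP1-remodelled matrix, and 473 and 432 units on native matrix. The 3 groups overlap in range. The log2 fold was -0.02 for MMP13 against native (limma adjusted p = 0.992) and 0.04 for MMP1 against native (limma adjusted p = 0.971), with 95% intervals of the fold from 0.818 to 1.20 and from 0.851 to 1.24. By the gene's own spread these intervals were 0.755 to 1.30 and 0.785 to 1.35.

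The ratio of Col1a1 to Col1a2 reads within a library does not depend on how libraries are scaled. It was 4.72 and 5.31 on MMP13-remodelled matrix, 4.98 and 3.97 on MMP1-remodelled matrix, and 3.87 and 4.89 on native matrix. The replicates on MMP1-remodelled and on native matrix each differed by more than the group means did, and the exact 95% counting intervals of the native pair (3.46 to 4.34 and 4.47 to 5.36) did not overlap. Group means were 5.01 ± 0.416, 4.48 ± 0.718 and 4.38 ± 0.722 (SD, n = 2 each) on MMP13-remodelled, MMP1-remodelled and native matrix.

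**Figure D2:**
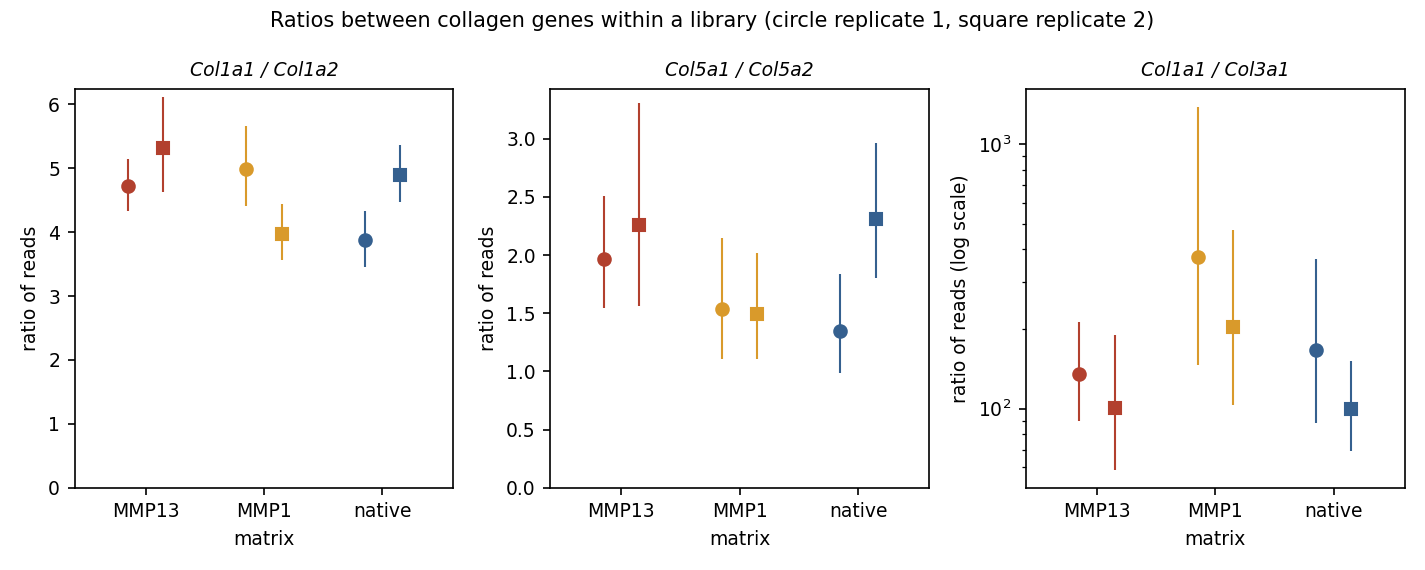
Ratios of reads between collagen genes within each library, by matrix, with exact 95% binomial counting intervals as bars. The ratio of Col1a1 to Col1a2 runs from 3.87 to 5.31 with the groups overlapping, that of Col5a1 to Col5a2 lies at 1.96 and 2.26 on MMP13-remodelled and at 1.54 and 1.49 on MMP1-remodelled matrix, and that of Col1a1 to Col3a1 (log axis) has the widest intervals.

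Col3a1 encodes the single chain of type III collagen, which co-assembles with type I in many tissues. It had 16.9 and 21.8 units on MMP13-remodelled matrix (23 and 13 reads), 5.84 and 9.60 units on MMP1-remodelled matrix (4 and 8 reads), and 10.9 and 21.1 units on native matrix (9 and 28 reads). Both MMP1 libraries lay below all 4 others, and the MMP13 libraries overlapped the native ones. The log2 fold was -0.93 for MMP1 against native (SE 0.58, limma adjusted p = 0.716), 0.32 for MMP13 against native (limma adjusted p = 0.931) and 1.25 for MMP13 against MMP1 (SE 0.58, limma adjusted p = 0.882). The last had an unadjusted p of 0.0323 by the trend and of 0.0760 by the gene's own spread, and its 95% interval of the fold ran from 1.08 to 5.24 by the trend and from 0.846 to 6.67 by the gene's own spread. The exact Poisson interval of the lowest library, MMP1 replicate 1, reached from 1.59 to 15.0 units and so covered the level of 1 native library. Without MMP1 replicate 1 the log2 fold for MMP1 against native was -0.62, and without native replicate 1 or 2 it was -1.38 or -0.49. For MMP13 against native it was -0.13 or 0.76 without native replicate 1 or 2.

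Type V collagen is a minor fibrillar collagen that is built into type I fibrils and limits their width, and Col5a1 and Col5a2 encode its main chains. The stretches before the annotated start of both genes are shown because the chains of 1 protein had different levels here. Their log2 folds against native had opposite signs, but neither gene was called. For MMP13 against native both signs turned without native replicate 1. Whether these stretches bear on the levels was not tested. The sequences are from RefSeq on build GRCr8 (the table of counts used rn5), chr3:31606760-31606879 on the plus strand for Col5a1 and chr9:55090152-55090271 on the minus strand for Col5a2, each 120 bases long and written 5′ to 3′ up to the start.
Col5a1: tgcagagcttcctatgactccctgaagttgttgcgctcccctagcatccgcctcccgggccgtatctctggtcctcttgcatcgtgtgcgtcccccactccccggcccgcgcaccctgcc
Col5a2: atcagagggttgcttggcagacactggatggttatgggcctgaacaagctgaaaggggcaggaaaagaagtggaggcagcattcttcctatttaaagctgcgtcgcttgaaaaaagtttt
G and C made up 65.8% of the Col5a1 stretch and 46.7% of the Col5a2 stretch, against a median of 53.3% over 33469 RefSeq start windows of that length. Promoter motifs were searched on both strands, and a match would stand in capitals. The TATA motif TATAAA was found in neither stretch and is held by 6.66% of all windows of that length. The motif CCAAT, held by 19.9% of windows, was found in neither. The GC-box motif GGGCGG, held by 23.7% of windows, was found in neither. This says only that these letters are not in these windows.

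Col5a1 had 151 and 163 units on MMP13-remodelled matrix, 142 and 138 units on MMP1-remodelled matrix, and 123 and 165 units on native matrix. The native libraries enclosed all 4 others. The log2 fold was 0.14 for MMP13 against native (limma adjusted p = 0.926) and -0.03 for MMP1 against native (limma adjusted p = 0.988), with 95% intervals of the fold from 0.825 to 1.47 and from 0.735 to 1.31. Col5a2 had 77.2 and 72.2 units on MMP13-remodelled matrix, 92.0 and 92.4 units on MMP1-remodelled matrix, and 91.2 and 71.7 units on native matrix. Both MMP1 libraries lay above the rest, but only just above native replicate 1. Its log2 fold was -0.11 for MMP13 against native (limma adjusted p = 0.941), 0.19 for MMP1 against native (limma adjusted p = 0.901) and -0.30 for MMP13 against MMP1 (SE 0.27, limma adjusted p = 1).

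The ratio of Col5a1 to Col5a2 reads was 1.96 and 2.26 on MMP13-remodelled matrix, 1.54 and 1.49 on MMP1-remodelled matrix, and 1.35 and 2.31 on native matrix. The MMP13 and MMP1 libraries did not overlap, while the native libraries held both the lowest and the highest ratio of the 6. The counting intervals of MMP13 replicate 1 (1.54 to 2.51) and MMP1 replicate 1 (1.11 to 2.15) overlapped. With 2 libraries a group no test of this ratio was made. Col5a3, which encodes a further type V chain and was not on the list, averaged 60.9 units over the 6 libraries, and the ratio of Col5a1 to Col5a3 ran from 1.67 to 3.49 with the groups overlapping.

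Col6a2 encodes a chain of type VI collagen. It had 57.4 and 58.8 units on MMP13-remodelled matrix, 67.2 and 57.6 units on MMP1-remodelled matrix, and 54.7 and 58.9 units on native matrix. Of the 7 genes it had the smallest residual SD (0.0996 on the log2 scale), below the trend's 0.305 at its level. The log2 fold was 0.03 for MMP13 against native (limma adjusted p = 0.992) and 0.13 for MMP1 against native (limma adjusted p = 0.953). The 95% interval of the fold was 0.675 to 1.55 for MMP13 by the trend and 0.821 to 1.27 by the gene's own spread.

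Col4a1 encodes a chain of type IV collagen and lies head to head with Col4a2, the gene of its partner chain, so that both are read outward from a shared stretch. In RefSeq on build GRCr8 the annotated starts leave 76 bases between them, at chr16:84885521-84885596, written here on the plus strand, the strand of Col4a1. It is shown because it serves both genes of a chain pair. Capitals mark the GGGCGG motif, which is read on the minus strand.
Col4a1: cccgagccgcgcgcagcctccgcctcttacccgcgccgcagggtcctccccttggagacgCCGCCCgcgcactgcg
G and C made up 78.9% of this stretch, against a median of 53.9% over all windows of 76 bases. GGGCGG occurs in 18.1% of such windows, and TATAAA (4.61% of windows) does not occur here. CCAAT (13.0% of windows) does not occur here either.

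Col4a1 had 21.3 and 45.3 units on MMP13-remodelled matrix, 30.7 and 38.4 units on MMP1-remodelled matrix, and 28.0 and 21.9 units on native matrix. The MMP13 libraries held the lowest and the highest value of the 6, and both MMP1 libraries lay above both native ones. Between 21 and 32 reads stood behind each value. The log2 fold was 0.32 for MMP13 against native (limma adjusted p = 0.908) and 0.46 for MMP1 against native (SE 0.41, limma adjusted p = 0.804). The 95% interval of the MMP1 fold ran from 0.790 to 2.38 by the trend and from 0.487 to 3.87 by the gene's own spread. Without MMP13 replicate 1 or 2 the log2 fold for MMP13 against native was 0.85 or -0.21.

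Across the list, limma called 0 of 7 genes in each comparison, where it called 0.151% of the 7284 tested genes for MMP1 against native, 0.412% for MMP13 against native and 0.0412% for MMP13 against MMP1. The quasi-likelihood test of edgeR on recovered reads called 0 of 7 in each (0.219%, 0.7% and 0.0437% of its genes). DESeq2 called 0 as well (0.00679%, 3.03% and 0.00679% of its genes), though in MMP13 against native it gave 3 of the 7 no adjusted p. At an unadjusted limma p under 0.05 there were 0 of 7 genes for MMP1 against native (8.24% of tested genes), 1 for MMP13 against native, Col1a1 (8.05%), and 1 for MMP13 against MMP1, Col3a1 (5.22%).

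Libraries of the 2 groups did not overlap for 3 of 7 genes in MMP1 against native, with Col5a2 and Col4a1 on the higher and Col3a1 on the lower side. Of all tested genes 38.4% did not overlap there, 19.6% on the higher and 18.8% on the lower side. In MMP13 against native this held for 1 of 7, Col1a1 on the higher side, against 37.5% of tested genes (18.9% higher and 18.6% lower). In MMP13 against MMP1 it held for 4 of 7, with Col1a1, Col3a1 and Col5a1 on the higher and Col5a2 on the lower side, against 31.4% of tested genes (15.9% higher and 15.4% lower). For the genes not given above in MMP13 against MMP1, the log2 fold was 0.11 for Col1a1, -0.06 for Col1a2, 0.17 for Col5a1, -0.14 for Col4a1 and -0.10 for Col6a2, each with a limma adjusted p of 1. The comparisons share libraries, so these counts are not independent of each other. The median log2 fold of the 7 genes was 0.07 for MMP1 against native (0.02 over all tested genes), 0.14 for MMP13 against native (0.0088) and -0.06 for MMP13 against MMP1 (-0.0027).

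**Figure D3:**
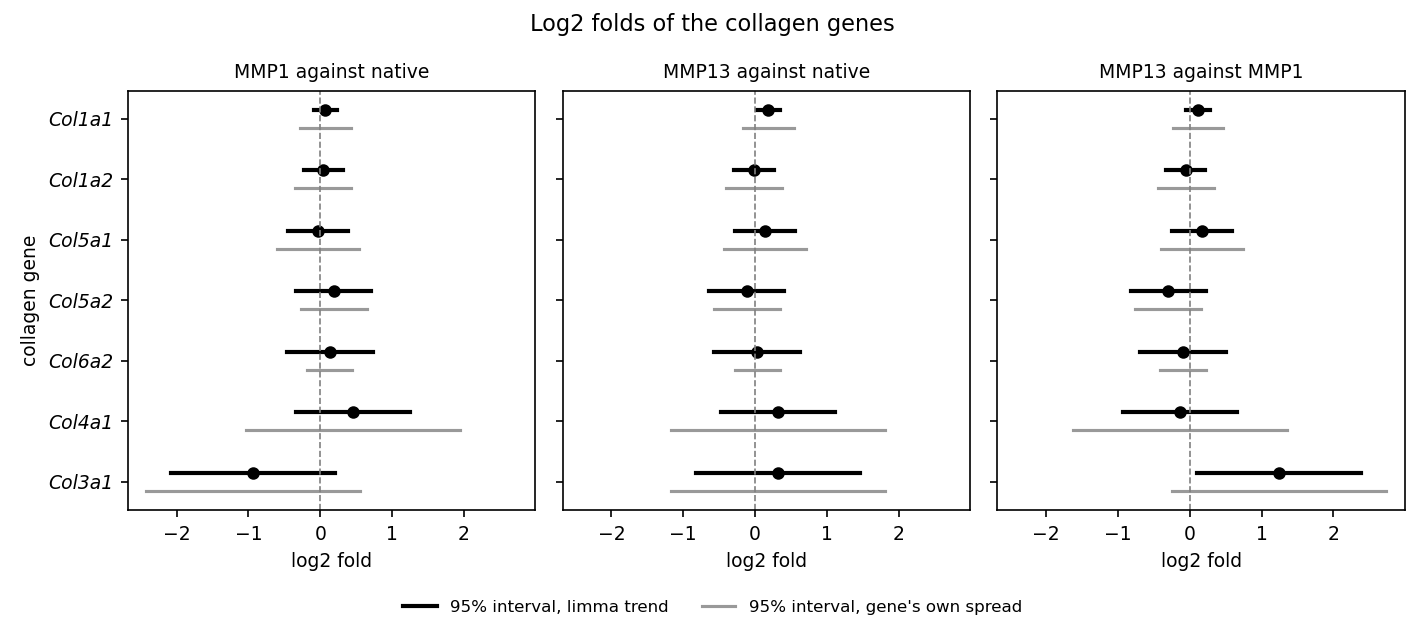
Log2 folds of the 7 collagen genes in the 3 comparisons (points), with the 95% interval from limma's trend (black) and from each gene's own spread over the 6 libraries on 3 degrees of freedom (grey). Every grey interval crosses 0. The black intervals cross 0 except for Col1a1 in MMP13 against native and Col3a1 in MMP13 against MMP1, whose adjusted p were 0.489 and 0.882.

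Beyond the list, 20 other collagen genes had a row, of which 7 passed the filter and 3 (Col13a1, Col23a1 and Col4a4) had no read in any library. Tested were Col5a3, Col18a1, Col16a1, Col27a1, Col2a1, Col11a1 and Col9a2, with mean levels from 60.9 units for Col5a3 down to 4.11 units for Col9a2. None was called by limma, edgeR or DESeq2 in any comparison, and 1, Col11a1 in MMP13 against native, had an unadjusted limma p under 0.05 (8.05% of all tested genes there). In that comparison DESeq2 gave no adjusted p for Col11a1, Col18a1 and Col16a1 and so could not call them. Col9a2 was not tested by edgeR. Their median log2 fold was 0.15 for MMP1 against native, -0.07 for MMP13 against native and -0.31 for MMP13 against MMP1. Col11a1, a minor fibrillar collagen gene best known from cartilage, had 5.15 and 1.68 units on MMP13-remodelled matrix, 13.1 and 3.60 on MMP1-remodelled matrix, and 9.72 and 15.8 on native matrix. Its log2 fold for MMP13 against native was -1.73 (SE 0.80, limma adjusted p = 0.539), and 1.68 units there is 1 read. Col27a1, a fibrillar collagen gene, had a log2 fold of 0.51 for MMP1 against native (limma adjusted p = 0.767).

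**Figure D4:**
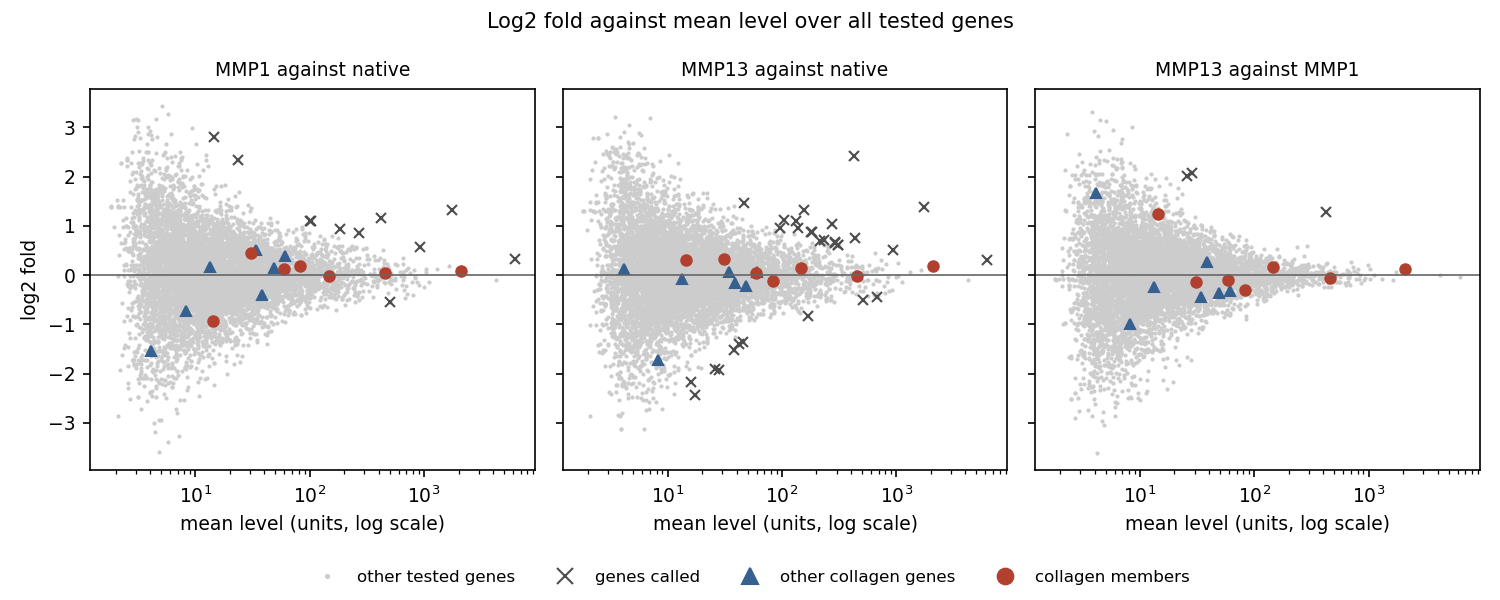
Log2 fold against mean level (units, log axis) for all 7284 tested genes (grey), with genes called by limma (crosses), the 7 collagen members (red circles) and the other 7 tested collagen genes (blue triangles), in the 3 comparisons. The scatter of folds widens at low levels, and no circle or triangle is a called gene. Col1a1, at 2094 units, has log2 folds of 0.07, 0.19 and 0.11.

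Genes that make, bind or regulate collagen were read from the same fit. Of the processing list, 25 were tested, and limma and DESeq2 called 0 in any comparison. For MMP13 against native edgeR called 1, Serpinh1 (0.7% of its genes), and DESeq2 gave P4ha1 no adjusted p. At an unadjusted limma p under 0.05 there were 3 in each comparison with native and 0 between the remodelled matrices. Over all tested genes that share was 8.05% for MMP13 against native, 8.24% for MMP1 against native and 5.22% for MMP13 against MMP1, and it is the background for the counts of this kind in the other lists too. The median log2 fold was 0.02 for MMP1 against native and -0.03 for MMP13 against native. The smallest p belonged to Serpinh1, the collagen-specific chaperone of the endoplasmic reticulum, at 791 and 673 units on MMP13-remodelled, 686 and 673 on MMP1-remodelled, and 503 and 567 on native matrix. All 4 libraries on remodelled matrix lay above both native ones, with log2 folds of 0.45 (limma adjusted p = 0.0584, edgeR 0.0451, DESeq2 0.0554) for MMP13 and 0.35 (limma adjusted p = 0.274) for MMP1. Serpinh1 was picked by its p, so this gap is no separate support. Of all tested genes 18.9% lay higher without overlap for MMP13 against native and 19.6% for MMP1 against native. P4ha1, a prolyl hydroxylase subunit gene, had log2 folds of 0.89 (limma adjusted p = 0.470) for MMP13 and 0.78 (limma adjusted p = 0.587) for MMP1 against native.

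Of the collagen receptors 7 were tested and limma, edgeR and DESeq2 called 0, with 4, 3 and 1 at an unadjusted limma p under 0.05 in MMP1 against native, MMP13 against native and MMP13 against MMP1 (8.24%, 8.05% and 5.22% of all tested genes). For MMP13 against native DESeq2 gave no adjusted p for Cd44 and Mrc2. Itga11, which encodes a collagen-binding integrin subunit of fibroblasts, had 12.5 and 13.4 units on MMP13-remodelled, 1.46 and 2.40 on MMP1-remodelled, and 8.51 and 10.6 on native matrix. It was lowest in both MMP1 libraries, at 1 and 2 reads there, as was Col3a1, and neither passed (Itga11 MMP13 against MMP1, limma adjusted p = 0.798). Itgb1, the shared beta subunit of these integrins, had 479 and 497 units on MMP13-remodelled, 570 and 511 on MMP1-remodelled, and 649 and 668 on native matrix (log2 folds of -0.43 and -0.29 for MMP13 and MMP1 against native, limma adjusted p = 0.122 and 0.499). Mrc2 encodes the receptor that takes up cleaved collagen. It had 27.9 and 48.7 units on MMP13-remodelled, 36.5 and 37.2 on MMP1-remodelled, and 15.8 and 27.2 on native matrix. Its log2 fold was 0.80 for MMP13 against native (limma adjusted p = 0.606), and both MMP1 libraries also lay above both native ones. Cd44 went the other way, with log2 folds of -0.73 for MMP13 and -0.72 for MMP1 against native (limma adjusted p = 0.509 for each).

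The list of proteins that sit on or beside fibrils had 12 tested and 0 called genes, that of basement membrane partners 9 and 0, and that of regulators of collagen genes 17 and 0, by limma, edgeR and DESeq2 alike. For MMP13 against native DESeq2 gave some of these genes no adjusted p, Fbn1, Pxdn, Fli1 and Cebpb among them. Fli1 was also not tested by edgeR. At an unadjusted limma p under 0.05 there were 4, 1 and 3 genes of these lists for MMP13 against native, 4, 0 and 3 for MMP1 against native, and 0, 0 and 2 for MMP13 against MMP1, beside 8.05%, 8.24% and 5.22% of all tested genes. Their median log2 folds for MMP13 against native were 0.08, -0.19 and 0.03, and for MMP1 against native 0.07, 0.28 and 0.28. Fn1 had the smallest p of the fibril list in both comparisons with native. It had 699 and 766 units on MMP13-remodelled, 723 and 707 on MMP1-remodelled, and 965 and 921 on native matrix. Its log2 folds were -0.37 (limma adjusted p = 0.162) for MMP13 and -0.40 (limma adjusted p = 0.131) for MMP1. Of that list 6 genes had positive and 6 negative log2 folds for MMP13 against native, and 7 and 5 for MMP1. All 9 basement membrane partners had negative log2 folds for MMP13 against MMP1, from -1.20 to -0.06, with none called. The median over all tested genes was -0.0027 there. Against native 8 of the 9 were positive for MMP1, from the same MMP1 libraries, and 4 of the 9 for MMP13. Among regulators, 10 had positive and 7 negative log2 folds for MMP13 against native. Fli1 had the smallest p there, with a log2 fold of -2.75 (limma adjusted p = 0.298). It had 3 and 0 reads on MMP13-remodelled and 12 and 11 on native matrix. Cebpb, a transcription factor gene, had 80.9 and 67.2 units on MMP13-remodelled, 45.3 and 60.0 on MMP1-remodelled, and 37.7 and 44.5 on native matrix (log2 fold 0.83 for MMP13 against native, limma adjusted p = 0.361). Tgfb2, which encodes a TGF-beta ligand, had 19.1 and 20.2 units on MMP13-remodelled, 32.1 and 25.2 on MMP1-remodelled, and 10.9 and 10.6 on native matrix (log2 fold 1.33 for MMP1 against native, limma adjusted p = 0.347).

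Patterns were compared with 478 other genes with a mean of at least 100 units, and predicted genes with LOC or RGD numbers were not named. Of the rest, those whose log2 levels followed Col1a1 most closely over the 6 libraries were Gm2a (Pearson r = 0.970), Tpt1 (0.963), Rpl12 (0.943), Eprs (0.883) and Alyref (0.876). Those closest to the mean log2 level of the 7 collagen genes were Itga5 (0.899), Slc7a5 (0.888), Lgmn (0.880), Arf1 (0.879) and Slc25a3 (0.860). Among themselves the 7 genes had r from -0.924 (Col5a2 with Col3a1) to 0.766 (Col5a1 with Col1a1), so their mean is not a pattern that they share. No collagen processing gene was in either set of named genes, but those with a mean under 100 units, such as P4ha1, could not be. The absence therefore says nothing about that list. These are the highest values over 6 libraries among those of the 478 that could be named, and a predicted gene may have had a higher r. The libraries share the authors' size factors, and the values are given as a description only. Gm2a, for instance, had 116 and 107 units on MMP13-remodelled, 115 and 90.0 on MMP1-remodelled, and 81.4 and 98.1 on native matrix.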

How the data were processed

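Rat-1 RNA was sequenced from the 3' end in 6 libraries. The tools named, per the submitters' processing notes, are bcl2fastq, TopHat and DESeq, with build rn5. How genes were counted, with which annotation and strand setting, and whether UMIs were collapsed is not given in the sources used here. As numbers, the authors deposited a normalized signal, in which each library's gene counts had been divided by its own size factor. The values show this: 100% of those above 0 were whole multiples of the smallest in their library, within 0.01 reads, so reads were recovered.

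Genes with at least 5 units in at least 2 libraries (7284) entered limma 3.58.1 (R 4.3.3; trend, 1 coefficient per group, no block) as log2(value + 1). Log2 folds are on that scale, which understates low genes. Genes were called at 0.05 after Benjamini-Hochberg adjustment over all tested genes. Prior degrees of freedom were infinite, so intervals are also given from each gene's own spread. edgeR 4.0.16 called 10 genes for MMP1 against native, 32 for MMP13 against native and 2 for MMP13 against MMP1, and DESeq2 1.42.0 also ran on the recovered reads. Scripts were tested on simulated data. Counting intervals and floors of 3 reads cover counting error only.

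The members and lists were chosen with earlier results of these data known. All members were named. From each other list the rule allowed up to 3 genes per comparison by smallest p, of which some are given. The markers and the 5 genes of most similar pattern also followed set rules. Col13a1, Col23a1 and Col4a4, Col5a3 in its ratio, and the zero-read markers were named after their values were seen. RefSeq start windows were found for 4 of the 7 genes with a row (Col1a2, Col5a1, Col5a2 and Col4a1), and 3 are shown. None was found for Col1a1, Col3a1 and Col6a2.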

Additional observations from a re-analysis of the deposited data

How the results depend on the processing

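None of the 7 listed collagen genes was called under any of the 18 alternatives, in any comparison. Of 378 recomputed log2 folds of the 7 genes, 356 kept their sign and 21 turned. Many of the 378 could not turn. Another filter, another variance setting, the replicate block and only the 2 groups compared leave a fold unchanged. So does leaving out a library from outside the comparison. The 356 therefore overstate how stable the signs were. Quantile scaling gives genes of the same rank in their libraries the same value. With it Col1a1 had a log2 fold of -0.16 for both MMP1 and MMP13 against native and of 0 for MMP13 against MMP1. Col1a1 ranked 3rd and 4th on each remodelled matrix and 3rd in both native libraries. Its folds under this scaling reflect only the step between these ranks. The log2 fold of Col1a2 for MMP13 against native turned to 0.0094 with quantile scaling and to 0.0057 by edgeR. The cause of that turn was not tested. No scaling moved the median log2 fold of all genes by 0.1. The other 17 turns came from leaving out 1 library. For MMP1 against native the folds then ran from -0.032 to 0.18 for Col1a1, -0.041 to 0.12 for Col1a2 and -0.24 to 0.19 for Col5a1. For MMP13 against native they ran from -0.12 to 0.093 for Col1a2, -0.13 to 0.76 for Col3a1, -0.073 to 0.35 for Col5a1, -0.28 to 0.058 for Col5a2, -0.21 to 0.85 for Col4a1 and -0.019 to 0.085 for Col6a2. For MMP13 against MMP1 they ran from -0.16 to 0.053 for Col1a2, -0.66 to 0.39 for Col4a1 and -0.21 to 0.011 for Col6a2. The adjusted p of Col1a1 for MMP13 against native ran from 0.155 to 0.999 over all alternatives.

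Counts of called genes over the whole table were less stable. For MMP1 against native 11 genes were called, 1 by DESeq2, and 3 (without native replicate 1) to 17 (without native replicate 2) with a library left out. For MMP13 against native 30 were called, 18 with a pseudocount of 0.5, 13 with no filter, 18 with only the 2 groups compared and 6 (without native replicate 1) to 35 (without native replicate 2) with a library left out. For MMP13 against MMP1 3 were called, 1 with only the 2 groups compared, 1 by DESeq2 and 1 (without MMP13 replicate 2 or native replicate 2) to 27 (without MMP13 replicate 1) with a library left out. Without the trend, and with each gene's own variance, 0 genes were called in every comparison, so neither setting could call a collagen gene. The differences between replicates 1 and 2 correlated between groups with r from -0.0724 to 0.0059 across genes. The tested genes had a median mean level of 13.3 units, so counting error could hide a shared replicate effect, and pairing is not excluded. With the replicate block 11, 21 and 2 genes were called, none of them among the 7. Depth limits Col3a1 (4 to 28 reads) and Col4a1 (21 to 32 reads) most.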
